A study of Mus musculus with 24 samples.

Results

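The genes described here are 10 factors tied to tumor cell dormancy, to retinoic acid signaling, to the TAM receptor tyrosine kinases or to the urokinase system, namely Nr2f1, Nr2f2, Bhlhe40, Bhlhe41, Rarb, Rarres1, Gas6, Axl, Tyro3 and Plaur. They were chosen by gene symbol and, like the other gene lists below, with earlier results of these data known. The shares of all genes given beside their counts are therefore a description. All 10 are listed among the 35275 genes of the tables of cultured cells and the 54532 genes of the tables of tumors, of which 34519 are in both. RNA-seq covered 24 libraries of the mouse mammary tumor lines D2A1 and D2.1, both derived from the D2 series of hyperplastic nodules of BALB/c mammary gland. D2A1 grows rapidly as metastases, whereas D2.1 is used as a model of dormancy. The 6 groups were cultured D2A1 and D2.1 cells with 3 libraries each, mammary fat pad tumors of each line in immunocompetent BALB/c females with 4 each, and tumors of each line in SCID-beige females with 5 each. SCID-beige mice lack T and B cells and have defective NK cells. The study used mice of 8 to 12 weeks for its tumor work and does not give their age at collection. Each tumor grew from 1000000 implanted cells and was collected at about 500 cubic mm, which the study calls a later stage for D2.1. No transgene or drug treatment distinguished the groups, each line is 1 cell population carried in culture, and each tumor library holds the RNA of tumor and host cells together. The comparisons ask whether the lines differ in these genes in culture and in tumors, and whether the presence of adaptive immunity moves them.

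Dormant tumor cells persist without net growth, and several transcription factors have been linked to that state. Nr2f1 and Nr2f2 encode the orphan nuclear receptors COUP-TFI and COUP-TFII, and Bhlhe40 and Bhlhe41 encode the repressors DEC1 and DEC2, which bind E-boxes and also act in the circadian clock. Retinoic acid enters the nucleus and acts through retinoic acid receptors paired with retinoid X receptors on direct repeats of a short hexamer, and Rarb, which encodes the receptor RARβ, is a classic target of its own ligand. The TAM receptors Tyro3, Axl and Mertk are activated by the vitamin K-dependent ligands Gas6 and protein S, and Axl and Gas6 act in clearance of dying cells, innate immune restraint and tumor cell survival. Plaur encodes the receptor of urokinase, which localizes plasminogen activation at the cell surface and signals through integrins.

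Between 16837260 and 24818234 reads were counted on genes in each library of cultured cells and between 13566949 and 18355153 in each tumor, so that 3 counts corresponded to 0.121 to 0.178 and 0.163 to 0.221 CPM. Levels below are in this unit, the deposited counts scaled to a common library total, because the FPKM values use other gene lengths in the cell and tumor tables (the same length for 8.51% of 9048 genes). The 6 epithelial markers summed to 141 to 350.0 CPM in cultured D2A1 cells and to 2395 to 4236 in D2.1 cells, although Krt5 was at 0 in all 6 cultures. In tumors their sums overlapped, at 353 to 1183 CPM in D2.1 and 469 to 828 in D2A1, but single markers went both ways. In BALB/c mice 4 of the 6 were called higher in D2.1 and 1 lower (16.8% and 15.8% of all genes). In SCID-beige mice 3 were higher and 1 lower (17.2% and 14.8%). The lower one was Krt18 in both hosts, at means of 31.2 against 364 and 55.2 against 375 CPM. The summed level of 6 fibroblast markers was 4354 to 9726 CPM in D2.1 tumors and 725 to 1992 in D2A1 tumors, without overlap in either host. Col3a1 was its largest part (6267 CPM on average in D2.1 BALB/c tumors). Pdgfrb was not called in SCID-beige mice, at a mean of 479 CPM in D2.1 and 555 in D2A1 tumors. Macrophage markers (7 genes) ranged from 746 to 2422 CPM over all 18 tumors and were at most 2.89 in D2A1 and 21.4 in D2.1 cultures. Endothelial markers (7 genes) summed to 52.1 to 129.6 CPM in D2.1 tumors and 185 to 266 in D2A1 tumors, without overlap, and T cell markers (5 genes) reached 49.8 to 134 CPM in the BALB/c tumors of D2.1 and at most 20.1 in any other tumor. D2.1 BALB/c tumor 1 also held milk protein transcripts (339.9 CPM, 3 genes) as well as skeletal muscle (307 CPM, 3 genes) and adipocyte transcripts (188 CPM, 3 genes), and tumor 4 held skin keratinocyte transcripts (110.4 CPM, 3 genes). Skeletal muscle transcripts also reached 202 and 166 CPM in D2.1 SCID-beige tumors 4 and 5. Leaving out BALB/c tumors 1 and 4 together kept all 5 calls in BALB/c, and leaving out SCID-beige tumor 4 or tumor 5 left 7 or 5 of the 7 calls there. A lower bulk level can reflect fewer cells of a type or less RNA per cell, which cannot be told apart here. The slope of a library's expression on the GC content of transcripts, in log2 CPM per 10 percent GC, did not overlap between the lines in culture (-0.218 to -0.0249 in D2A1, 0.0835 to 0.108 in D2.1). In BALB/c mice the slopes of the lines overlapped (-0.333 to 0.0959 in D2A1, -0.190 to 0.349 in D2.1). Each D2.1 tumor there was higher by 0.143 to 0.275 than the D2A1 tumor of the same number.

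**Figure D1:**
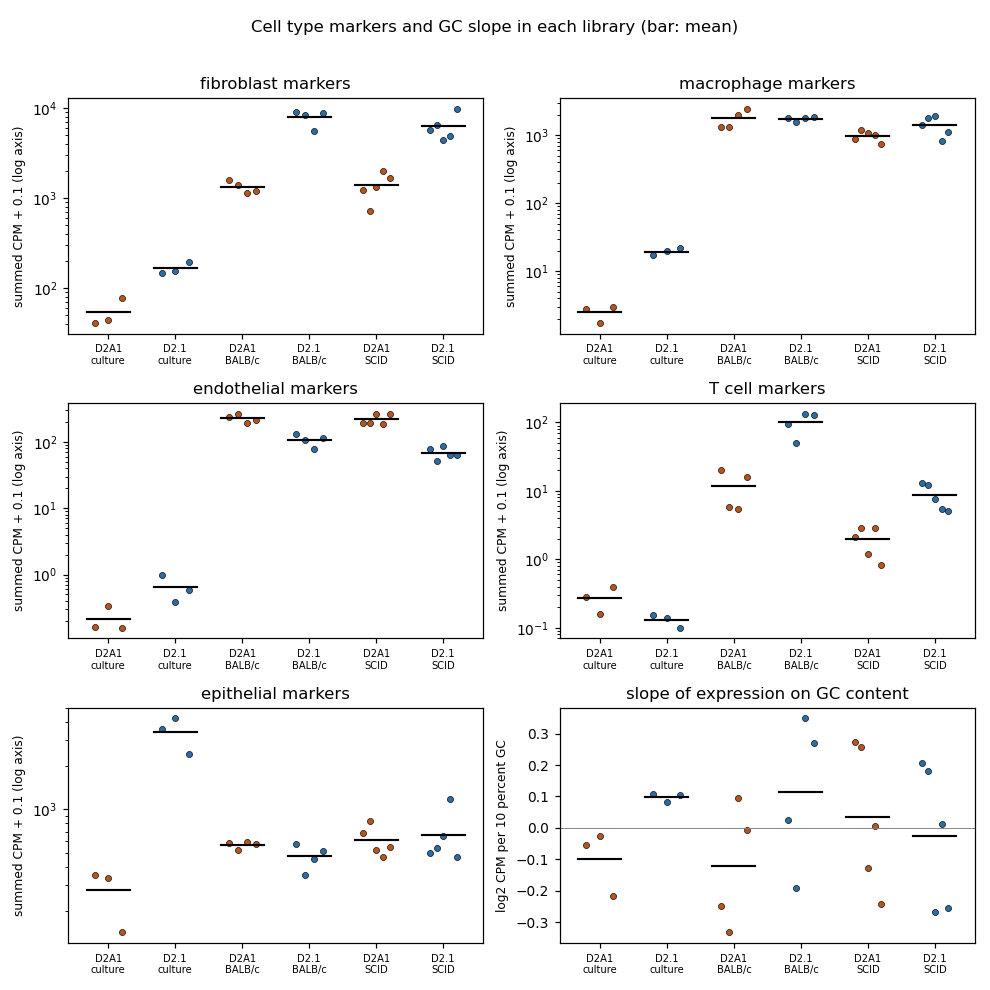
Summed level of the fibroblast, macrophage, endothelial, T cell and epithelial markers (CPM plus 0.1, log axis) and slope of expression on GC content (log2 CPM per 10 percent GC) in each library, with a point per library, a bar at the group mean, D2A1 in orange and D2.1 in blue. Fibroblast markers were higher in every D2.1 tumor (4354 to 9726 CPM) than in every D2A1 tumor (725 to 1992 CPM).

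RefSeq promoters (250 bases before to 50 after the annotated start, build GRCm38.p6) were at hand for 9 of the 10 genes, and those of the retinoid pair and of Bhlhe41 are shown because their letters bear on the retinoid and E-box roles of these genes. All were searched on both strands for direct repeats of the nuclear receptor hexamer (AGGTCA or AGTTCA or GGGTCA or GGTTCA) spaced by 5, 2 or 1 bases (DR5, DR2 and DR1), for the E-box CACGTG and for the AP-1 motif TGACTCA. A DR5 repeat was in 0.0974% of all 32851 promoters and in that of Rarb, with its first base 53 bases before the start. DR2 and DR1 repeats were in 0.268% and 0.222% of promoters and in none of the 9 genes. The E-box was in 7.15% of promoters and in that of Bhlhe41, 153 bases before the start, and TGACTCA was in 5.2% of promoters and in that of Plaur, 69 bases before the start. No promoter of these genes held more than 1 of the motifs, so no matches overlapped. In the sequences below, read 5′ to 3′ on the strand of the gene, capitals mark the DR5 repeat of Rarb and the E-box of Bhlhe41, and Rarres1 held none of the motifs in this window.
Rarb, chr14:16575427-16575726, minus strand: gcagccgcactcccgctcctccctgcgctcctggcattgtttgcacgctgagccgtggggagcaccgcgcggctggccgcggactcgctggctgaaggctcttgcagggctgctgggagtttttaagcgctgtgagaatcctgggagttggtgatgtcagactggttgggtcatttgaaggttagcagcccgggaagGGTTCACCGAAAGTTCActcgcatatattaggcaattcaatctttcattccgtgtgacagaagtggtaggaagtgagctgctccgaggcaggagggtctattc
Rarres1, chr3:67515474-67515773, minus strand: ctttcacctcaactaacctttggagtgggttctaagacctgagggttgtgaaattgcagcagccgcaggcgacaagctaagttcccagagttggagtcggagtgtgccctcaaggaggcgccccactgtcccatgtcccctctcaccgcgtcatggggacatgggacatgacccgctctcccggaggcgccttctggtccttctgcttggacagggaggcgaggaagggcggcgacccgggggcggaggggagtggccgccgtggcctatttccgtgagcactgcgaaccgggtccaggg
Bhlhe41, chr6:145865371-145865670, minus strand: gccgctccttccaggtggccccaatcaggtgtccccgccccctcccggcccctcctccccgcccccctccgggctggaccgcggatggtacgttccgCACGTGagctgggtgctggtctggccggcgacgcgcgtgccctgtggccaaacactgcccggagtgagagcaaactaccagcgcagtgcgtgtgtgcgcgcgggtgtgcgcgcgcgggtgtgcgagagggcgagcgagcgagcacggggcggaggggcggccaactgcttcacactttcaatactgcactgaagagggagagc

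In culture, 7 of the 9 genes that passed the expression filter were higher in D2.1 than in D2A1 cells and 1 was lower (edgeR's quasi-likelihood test on all genes, Benjamini-Hochberg adjusted p under 0.05), where 24.2% and 20.7% of all 12489 genes tested were called in these directions. In tumors of BALB/c mice, 4 of 9 were higher and 1 was lower, against 16.8% and 15.8% of 14953 genes. In SCID-beige mice, 6 of 10 were higher and 1 was lower, against 17.2% and 14.8% of 14355 genes. Nr2f1, Nr2f2 and Bhlhe41 were called higher in D2.1 in all 3 settings. The median log2 fold change of the genes tested was 1.09 in culture, 0.52 in BALB/c and 0.68 in SCID-beige mice, beside -0.02, -0.02 and 0.02 over all genes tested, and the culture median was the same with Rarres1 at its lower bound. Rarres1 is in each of these counts, but in each setting it passed the filter only through the D2.1 libraries, which favors a call of higher in D2.1. Without it, 6 of 8, 3 of 8 and 5 of 9 genes were higher. The culture libraries may be technical replicates, which is how the study describes its in vitro data points, and every culture p-value then measures technical spread. Gas6 in culture and Rarb in BALB/c tumors did not pass.

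**Figure D2:**
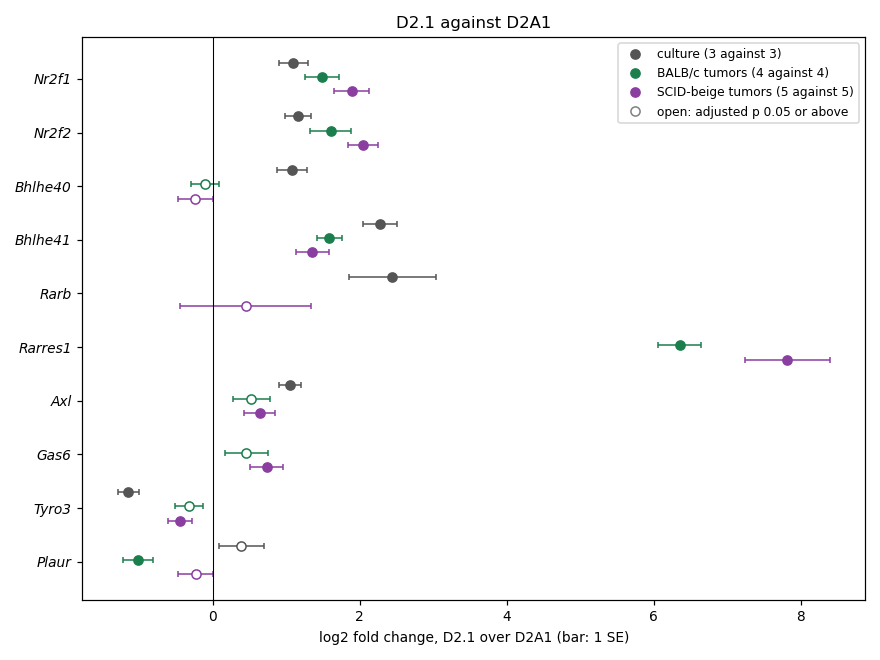
Fitted log2 fold change of D2.1 over D2A1 for each gene (edgeR, bar of 1 SE) in culture, BALB/c tumors and SCID-beige tumors, with filled points for adjusted p under 0.05. Nr2f1, Nr2f2 and Bhlhe41 lie right of 0 in all 3 settings, whereas Bhlhe40 does so only in culture. Rarres1 in culture is left out because every D2A1 library was at 0, and Rarb in BALB/c tumors and Gas6 in culture because they did not pass the filter.

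The nuclear receptor gene Nr2f1 (ENSMUSG00000069171, chr13:78188973-78199757, minus strand) was 2.13-fold higher in D2.1 in culture, 2.80-fold in BALB/c and 3.71-fold in SCID-beige mice. Cultured D2A1 cells held 8.91, 9.03 and 7.17 CPM and D2.1 cells 18.3, 16.2 and 14.4 CPM. The D2.1 cultures were all higher, with a log2 fold change of 1.09 (SE 0.20, edgeR adjusted p = 0.00204). D2A1 tumors of BALB/c mice held 7.63, 9.86, 11.6 and 9.73 CPM and D2.1 tumors 24.2, 31.7, 19.6 and 28.2 CPM. These groups did not overlap either, at a log2 fold change of 1.48 (SE 0.23, edgeR adjusted p = 8.25e-04). In SCID-beige mice, D2A1 tumors held 4.55, 6.78, 11.3, 7.69 and 10.3 CPM and D2.1 tumors 26.5, 29.8, 36.4, 20.4 and 30.9 CPM. Every D2.1 tumor was above every D2A1 tumor, with a log2 fold change of 1.89 (SE 0.24, edgeR adjusted p = 4.89e-05). Over the 6 groups, the D2.1 tumors of both hosts ranked highest and overlapped each other, cultured D2.1 cells followed below them, and the 3 D2A1 groups ranked last and overlapped.

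Nr2f2 (ENSMUSG00000030551, chr7:70351944-70366735, minus strand), its paralog, was also higher in D2.1 in each setting. In culture, D2A1 held 39.7, 42.1 and 38.4 CPM and D2.1 80.7, 95.5 and 67.3 CPM, a log2 fold change of 1.16 (SE 0.18, edgeR adjusted p = 8.81e-04). D2A1 tumors of BALB/c mice held 32.5, 38.2, 29.8 and 27.5 CPM, and D2.1 tumors were spread from 58.6 and 64.3 CPM in tumors 3 and 4 to 107 and 141 CPM in tumors 1 and 2. The groups did not overlap, with a log2 fold change of 1.60 (SE 0.28, edgeR adjusted p = 0.00154). D2A1 tumors of SCID-beige mice held 18.4, 21.6, 32.6, 26.6 and 34.9 CPM and D2.1 tumors 103, 85.2, 141, 78.5 and 120.5 CPM, a log2 fold change of 2.04 (SE 0.20, edgeR adjusted p = 6.23e-06). The exact permutation test on log2 CPM gave p = 0.0286 for both receptors in BALB/c and p = 0.00794 in SCID-beige mice, the smallest values that 4 against 4 and 5 against 5 tumors allow, while 3 against 3 cultures cannot go below 0.1. Both receptor genes overlap an annotated noncoding transcript on the other strand (A830082K12Rik for Nr2f1, at most 182 counts in a tumor, and B130024G19Rik for Nr2f2, at most 119), and the strand setting of the counting is not given in the sources used here. The summed fibroblast markers were higher in the same D2.1 groups, at 146 to 196 CPM in culture against 40.8 to 77.1 in D2A1. In culture this sum came from Pdgfra, Pdgfrb and Col3a1, since Dcn, Lum and Dpt were at 0.322 CPM or less, so it does not show fibroblasts there. The part of these markers in the difference was not tested.

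Bhlhe41 (ENSMUSG00000030256, chr6:145858243-145865558, minus strand), a repressor of E-box genes, was higher in D2.1 throughout. Cultured D2A1 cells held 12.7, 13.03 and 10.98 CPM and D2.1 cells 59.6, 62.5 and 39.6 CPM. The log2 fold change was 2.28 (SE 0.23, edgeR adjusted p = 8.16e-05), the largest in culture among Nr2f1, Nr2f2, Bhlhe40 and Bhlhe41. D2A1 tumors of BALB/c mice were tightly grouped at 38.4, 33.6, 34.9 and 39.9 CPM, and D2.1 tumors held 122, 75.9, 109 and 111 CPM. The log2 fold change was 1.58 (SE 0.17, edgeR adjusted p = 7.40e-05). Among SCID-beige hosts, D2A1 tumors held 31.5, 25.4, 40.8, 33.9 and 34.9 CPM and D2.1 tumors 78.6, 94.8, 107, 39.9 and 89.1 CPM. Tumor 4 of D2.1 fell within the D2A1 range and the other 4 did not, with a log2 fold change of 1.35 (SE 0.22, edgeR adjusted p = 4.10e-04, exact permutation p = 0.0159). Tumor 4 also had the lowest summed macrophage markers of the D2.1 SCID-beige tumors (806 CPM, against 1095 to 1920 in the others), and the summed fibroblast markers differed between the lines without overlap in both hosts. Their part in the Bhlhe41 difference was not tested. All D2A1 tumors were above all D2A1 cultures, by 2.997-fold in BALB/c and 2.72-fold in SCID-beige mice on average, a difference in which the tables and the growth setting cannot be told apart.

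Bhlhe40 (ENSMUSG00000030103, chr6:108660629-108666925, plus strand) differed between the lines in culture and did not pass the test in tumors. Cultured D2A1 cells held 96.5, 94.4 and 126 CPM and D2.1 cells 246, 207 and 151 CPM. Every D2.1 culture was higher, with a log2 fold change of 1.08 (SE 0.21, edgeR adjusted p = 0.00315), with replicate 3 of each line closest to the other line. In BALB/c mice, D2A1 tumors held 200.2, 160.1, 118 and 122 CPM and D2.1 tumors 166, 128, 134 and 103 CPM, groups that overlapped at a log2 fold change of -0.10 (SE 0.19, edgeR adjusted p = 0.717). In SCID-beige mice, D2A1 tumors ranged widely, at 178, 112, 175, 240.4 and 305 CPM, and D2.1 tumors held 104, 143, 191, 206 and 173 CPM (log2 fold change -0.24, SE 0.24, edgeR adjusted p = 0.479).

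**Figure D3:**
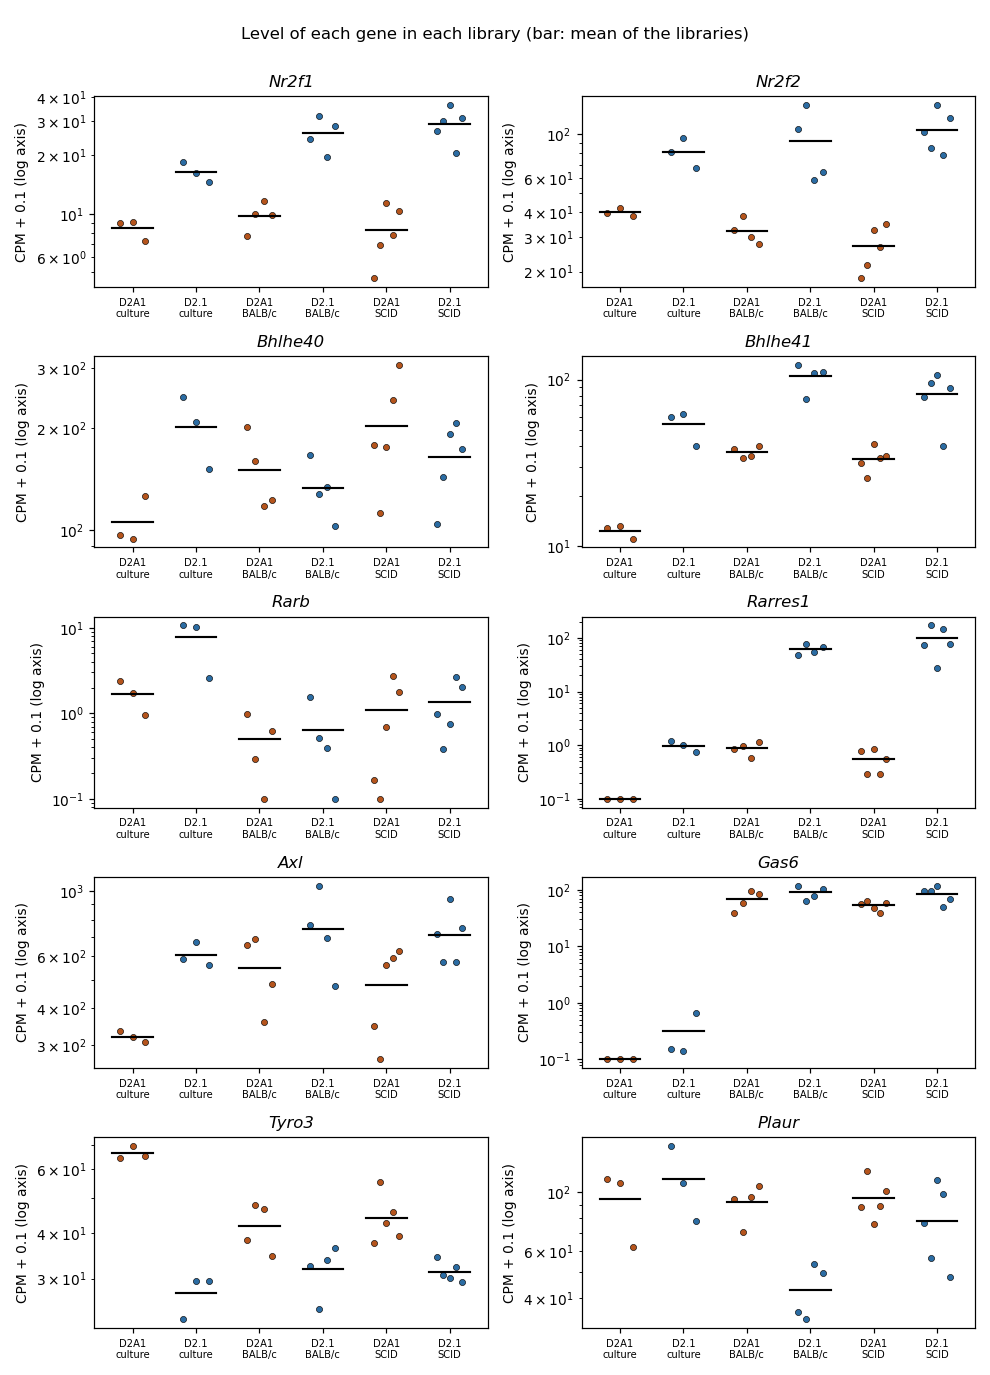
Level of each of the 10 genes in each of the 24 libraries (CPM plus 0.1, log axis), with a point per library, a bar at the group mean, D2A1 in orange and D2.1 in blue. Rarres1 stood at 27.1 to 171 CPM in D2.1 tumors and at 1.07 CPM or less in every other library, and Gas6 at 38.3 CPM or more in every tumor and at 0.547 CPM or less in every culture.

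Rarres1 (ENSMUSG00000049404, chr3:67478972-67515523, minus strand), a transmembrane protein gene named for its induction by retinoids in skin, showed the widest separation of the 10 genes. In culture, D2A1 cells had 0 counts in all 3 libraries and D2.1 cells 21, 23 and 12 counts (1.07, 0.927 and 0.656 CPM), which was at least 5.06-fold higher against a floor of 3 counts per library (edgeR adjusted p = 0.00113, for a gene that passed the filter only through D2.1). In BALB/c mice, D2.1 tumors held 48.4, 75.7, 54.8 and 68.2 CPM and D2A1 tumors 0.751, 0.885, 0.477 and 1.04 CPM. The log2 fold change was 6.36 (SE 0.29, edgeR adjusted p = 4.95e-07). In SCID-beige mice, D2.1 tumors held 72.1, 171, 27.1, 144 and 77.0 CPM and D2A1 tumors 3 to 10 counts each (0.196 to 0.737 CPM). The log2 fold change was 7.82 (SE 0.57, edgeR adjusted p = 4.14e-07), with a spread among D2.1 tumors of 6.32-fold in SCID-beige and 1.56-fold in BALB/c mice. The mean of D2.1 tumors was 69.8-fold in BALB/c and 111-fold in SCID-beige mice above that of D2.1 cultures, across tables whose difference from the growth setting cannot be told apart. The summed fibroblast marker transcripts moved in the same direction between the lines in tumors, and their part in the Rarres1 difference was not tested.

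Rarb (ENSMUSG00000017491, chr14:16430839-16819156, minus strand), the receptor gene whose promoter holds the DR5 repeat shown above, went another way. Cultured D2A1 cells held 2.26, 1.62 and 0.867 CPM and D2.1 cells 10.6, 10.1 and 2.52 CPM. Replicate 3 was the lowest of both lines, the groups did not overlap, and the log2 fold change was 2.44 (SE 0.59, edgeR adjusted p = 0.00943). In tumors, Rarb was at 0 to 45 counts. D2A1 tumors of BALB/c mice held 0.876, 0.190, 0 and 0.521 CPM and D2.1 tumors 1.47, 0.413, 0.288 and 0 CPM, too low to pass the filter. D2A1 tumors of SCID-beige mice held 0.0670, 0, 0.590, 2.61 and 1.69 CPM and D2.1 tumors 0.877, 0.283, 0.640, 2.58 and 1.93 CPM (log2 fold change 0.45, SE 0.89, edgeR adjusted p = 0.742). Tumors 4 and 5 were the highest of both lines there, and the spread within each line was wide. Rarb overlaps Top2b on the other strand at its 3′ end, with up to 6067 Top2b counts in a culture and 2771 in a tumor, and Rarb counts of 0 occurred in 3 tumors.

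Of 21 other retinoid genes (receptors, binding proteins, and enzymes that make or break down retinoic acid), 9 of the 10 tested in culture were higher in D2.1 and 0 were lower (edgeR adjusted p under 0.05), beside 24.2% and 20.7% of all genes. Of the 9, 4 passed the filter only through D2.1, which favors a call of higher in D2.1, and these are the ones of largest fold. They were Dhrs3, a retinaldehyde reductase (24.5 ± 9.09 against 0.350 ± 0.173 CPM, mean ± SD, n = 3), and Aldh1a3, which makes retinoic acid (24.5 ± 8.02 against 0.666 ± 0.452). Cyp26b1, which degrades retinoic acid, stood at 23.0 ± 10.1 against 0.937 ± 0.375 CPM, and Crabp2, which carries it to the nucleus, at 9.67 ± 2.82 against 0.896 ± 0.351. In tumors the list was split, with 6 higher and 3 lower of 19 tested in BALB/c (beside 16.8% and 15.8% of all genes) and 7 higher and 4 lower of 16 in SCID-beige mice (beside 17.2% and 14.8%). Aldh1a3 in both hosts, Rxrg and Aldh1a2 in BALB/c mice and 1 of the 4 lower genes in SCID-beige mice passed only through the line where they were higher. Aldh1a3 was again higher in D2.1, at 24.9 ± 9.85 against 1.42 ± 1.005 CPM in BALB/c (n = 4) and 64.3 ± 31.5 against 1.41 ± 0.924 in SCID-beige mice (n = 5). Stra6, the receptor for retinol uptake, was lower in D2.1 tumors, at 15.3 ± 12.8 against 98.4 ± 34.7 CPM in BALB/c and 10.8 ± 11.5 against 198 ± 20.4 in SCID-beige mice. In BALB/c mice, Rxrg, a retinoid X receptor with at most 1 count in a D2A1 tumor, stood at 2.04 ± 0.542 against 0.0305 ± 0.0353 CPM, and Aldh1a2, another producer of retinoic acid, at 0.240 ± 0.232 against 2.27 ± 0.668. Crabp2 (68.8 ± 31.2 against 11.2 ± 1.18 CPM) and Cyp26b1 (52.0 ± 7.30 against 14.2 ± 4.72) were higher in D2.1 in SCID-beige mice.

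Gas6 (ENSMUSG00000031451, chr8:13465374-13494490, minus strand), the ligand of the TAM receptors, was nearly absent from both lines in culture. D2A1 cells had 0 counts in all 3 libraries and D2.1 cells 1, 1 and 10 counts (at most 0.547 CPM). Every tumor held Gas6. With BALB/c hosts, D2A1 tumors held 38.3, 59.2, 94.9 and 83.2 CPM and D2.1 tumors 119, 64.1, 78.7 and 102 CPM, groups that overlapped (log2 fold change 0.46, SE 0.30, edgeR adjusted p = 0.271). Among SCID-beige hosts, D2A1 tumors held 56.0, 64.1, 47.2, 39.4 and 57.2 CPM and D2.1 tumors 96.7, 96.9, 115, 49.2 and 69.0 CPM. The D2.1 tumors were higher on average, with tumor 4 inside the D2A1 range (log2 fold change 0.73, SE 0.23, edgeR adjusted p = 0.0242, exact permutation p = 0.0476). Macrophage markers summed to 1420, 1799, 1920, 806 and 1095 CPM in the same D2.1 tumors, the order of their Gas6 levels. In the same D2A1 tumors they summed to 871, 1205, 1076, 1014 and 746 CPM, which was not the order of Gas6. Of the 7 markers, 4 were called higher in D2.1 in SCID-beige mice, beside 17.2% of all genes. Without D2.1 tumor 1, 2 or 3 or D2A1 tumor 3 or 4, this adjusted p was 0.0598 to 0.0662. Against the floor of 3 counts per library, D2A1 tumors were at least 393-fold (BALB/c) and 301-fold (SCID-beige) above D2A1 cultures, and macrophage markers were at 2.89 CPM or less in D2A1 cultures (Adgre1, C1qa and C1qb at 0) and at 746 CPM or more in D2A1 tumors. The part of host cells in the Gas6 level was not tested.

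Axl (ENSMUSG00000002602, chr7:25757273-25788705, minus strand), a TAM receptor with high affinity for Gas6, was the most abundant of the 10 genes per length in every group, at the 94.4th to 99.1st percentile of FPKM among genes above 0. Cultured D2A1 cells held 334, 321 and 308 CPM and D2.1 cells 588, 672 and 562 CPM. The D2.1 cultures were all higher, with a log2 fold change of 1.05 (SE 0.15, edgeR adjusted p = 6.04e-04). In BALB/c mice, D2A1 tumors held 656, 686, 360.0 and 485 CPM and D2.1 tumors 767, 1043, 694 and 476 CPM. These overlapped (log2 fold change 0.52, SE 0.25, edgeR adjusted p = 0.144). With the replicate number as a block, a pairing that no label gives, the same difference passed (log2 fold change 0.51, edgeR adjusted p = 0.0156). In SCID-beige mice, D2A1 tumors held 350.0, 269, 562, 591 and 627 CPM and D2.1 tumors 715, 574, 939, 574 and 749 CPM. The groups overlapped, with a log2 fold change of 0.64 (SE 0.21, edgeR adjusted p = 0.0364, exact permutation p = 0.0635), and the call was lost without any of D2.1 tumors 1, 3 and 5 or D2A1 tumors 1, 2 and 3 (adjusted p = 0.0505 to 0.108) and in limma on FPKM (adjusted p = 0.0614).

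Tyro3 (ENSMUSG00000027298, chr2:119797733-119818104, plus strand), the TAM receptor best known from the nervous system, was the only one of the 10 genes called lower in D2.1 cultures. D2A1 cells held 64.3, 69.6 and 65.1 CPM and D2.1 cells 23.1, 29.5 and 29.5 CPM, far apart at a log2 fold change of -1.15 (SE 0.14, edgeR adjusted p = 2.55e-04). With BALB/c hosts, D2A1 tumors held 38.2, 47.9, 46.5 and 34.5 CPM and D2.1 tumors 32.4, 24.6, 33.7 and 36.3 CPM (log2 fold change -0.33, SE 0.19, edgeR adjusted p = 0.222). D2A1 tumors of SCID-beige mice held 37.6, 55.1, 42.6, 45.7 and 39.3 CPM and D2.1 tumors 34.3, 30.5, 29.99, 32.1 and 29.3 CPM. All D2.1 tumors were lower by a small margin (log2 fold change -0.45, SE 0.16, edgeR adjusted p = 0.0438, exact permutation p = 0.00794), and the call was lost with no filter (adjusted p = 0.108) and without any of D2.1 tumors 2, 3 and 5 or D2A1 tumors 2, 3 and 4 (adjusted p = 0.0559 to 0.0971).

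Among 5 other TAM genes, 3 were tested in each setting. Mertk, the TAM receptor of phagocytes, was higher in D2.1 in culture (17.1 ± 1.38 against 3.01 ± 0.509 CPM), in BALB/c tumors (25.3 ± 13.1 against 10.8 ± 2.33) and in SCID-beige tumors (18.8 ± 4.82 against 8.86 ± 3.94). Of the 7 macrophage markers, 2 were called higher in D2.1 tumors in BALB/c and 4 in SCID-beige mice, beside 16.8% and 17.2% of all genes. Their part in the Mertk difference was not tested. Lgals3, encoding galectin-3, a proposed Mertk ligand, was also higher in all 3 settings, at 377 ± 117 against 200.1 ± 33.6 CPM in culture, 456 ± 66.5 against 247 ± 35.8 in BALB/c and 540.3 ± 183 against 314 ± 75.3 in SCID-beige mice. Pros1, encoding protein S, was lower in D2.1 cultures (5.38 ± 2.63 against 19.4 ± 9.95 CPM).

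Plaur (ENSMUSG00000046223, chr7:24462484-24475968, plus strand) overlapped between the lines in culture and was lower in D2.1 when tumors grew in BALB/c hosts. Cultured D2A1 cells held 112, 108 and 61.8 CPM and D2.1 cells 149.9, 109 and 77.7 CPM, with replicate 3 lowest in both lines. The groups overlapped (log2 fold change 0.39, SE 0.31, edgeR adjusted p = 0.343). With the replicate number as a block, a pairing that no label gives, the difference passed (log2 fold change 0.38, edgeR adjusted p = 0.00419). In BALB/c mice, D2A1 tumors held 94.0, 71.1, 95.7 and 105 CPM and D2.1 tumors 35.1, 33.0, 53.7 and 49.6 CPM. All D2.1 tumors were lower, with a log2 fold change of -1.02 (SE 0.21, edgeR adjusted p = 0.00386, exact permutation p = 0.0286). Among SCID-beige hosts, D2A1 tumors held 87.6, 121, 75.7, 89.0 and 101 CPM and D2.1 tumors 76.3, 56.4, 111, 98.9 and 48.0 CPM, and the difference did not pass the test (log2 fold change -0.24, SE 0.23, edgeR adjusted p = 0.477).

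Of 11 other genes of the urokinase system, 6 of 7 tested were higher in D2.1 cultures and 0 were lower, beside 24.2% and 20.7% of all genes. Lrp1, an endocytic receptor that clears urokinase receptor complexes, stood at 698 ± 61.3 against 59.9 ± 8.81 CPM, and the activators Plat (191 ± 35.6 against 25.2 ± 8.38) and Plau (135 ± 25.7 against 28.1 ± 3.31) were likewise higher. In tumors the list gave 4 higher and 2 lower of 9 in BALB/c (16.8% and 15.8% of all genes), and 3 higher and 2 lower of 8 in SCID-beige mice (17.2% and 14.8%). Plat, Lrp1 and Mrc2, a collagen receptor that binds urokinase receptor complexes, were the higher ones named in both hosts. Mrc2 stood at 400.0 ± 61.8 against 97.9 ± 11.2 CPM in BALB/c and 395 ± 55.0 against 157 ± 35.5 in SCID-beige mice.

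Of 15 other genes linked to dormancy, 6 of 12 tested were higher in D2.1 cultures and 0 were lower (24.2% and 20.7% of all genes), including Gas1, a growth arrest gene (205 ± 82.3 against 4.17 ± 1.4999 CPM), Sox9, a progenitor transcription factor (91.2 ± 8.13 against 9.86 ± 2.51), and Tgfb2, a dormancy-linked growth factor (154 ± 31.5 against 29.1 ± 3.48). Tgfbr3, a coreceptor of that factor, stood at 43.1 ± 6.19 against 5.04 ± 2.79 CPM. In BALB/c tumors, 6 of 15 were higher and 2 lower (16.8% and 15.8% of all genes), and in SCID-beige tumors 3 of 13 were higher and 4 lower (17.2% and 14.8%), so that the share lower in BALB/c and the share higher in SCID-beige mice were near those of all genes. Of these, 1 of the 6 higher in BALB/c and 1 of the 4 lower in SCID-beige mice passed the filter only through the line where it was higher. Sox9 and Gas1 were higher in D2.1 in both hosts, Sox9 at 137 ± 12.004 against 11.95 ± 2.17 and 141 ± 26.1 against 27.8 ± 13.8 CPM. Thbs1, encoding thrombospondin-1, was lower in D2.1 tumors, at 60.0 ± 25.2 against 934 ± 373 CPM in BALB/c and 54.7 ± 30.1 against 937 ± 460.0 in SCID-beige mice. Tgfb2, higher in D2.1 cultures, was lower in D2.1 tumors of SCID-beige mice (log2 fold change -0.73, SE 0.23, edgeR adjusted p = 0.0236). In BALB/c mice Tgfb2 was not called (log2 fold change -0.53, SE 0.28, edgeR adjusted p = 0.180). Of 10 clock genes with E-box links, 6 were higher and 1 lower in D2.1 cultures (24.2% and 20.7% of all genes), among them Nr1d1, which encodes the repressor REV-ERBα (39.8 ± 9.51 against 12.4 ± 1.996 CPM), while in edgeR 0 passed in BALB/c (16.8% and 15.8% of all genes) and 1 of 10 in SCID-beige tumors (17.2% and 14.8%). That 1, Clock, stood at 66.6 ± 24.9 against 38.3 ± 17.0 CPM.

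Between hosts, none of the 10 tested in D2.1 tumors and none of the 9 tested in D2A1 tumors passed an adjusted p under 0.05 in edgeR or in DESeq2, where 0.891% of 14929 genes (0.871% higher and 0.0201% lower in BALB/c) and 1.17% of 14572 genes (0.906% higher and 0.261% lower) were called in edgeR. Of the genes tested, 1 of 10 in D2.1 and 0 of 9 in D2A1 tumors had an unadjusted p under 0.05, beside 9.97% and 10.1% of all genes. That 1 was Plaur, whose D2.1 tumors held less in BALB/c than in SCID-beige mice on average (values above), with a log2 fold change of -0.85 (SE 0.26, edgeR unadjusted p = 0.00721 and adjusted p = 0.212, exact permutation p = 0.0476). The other log2 fold changes of BALB/c over SCID-beige in D2.1 tumors ranged from -1.20 (Rarb, SE 0.91) to 0.38 (Bhlhe41, SE 0.24), and those in D2A1 tumors from -0.45 (Bhlhe40, SE 0.25) to 0.78 (Rarres1, SE 0.53). The comparisons of hosts and of lines draw on the same 18 tumors, so they are not separate evidence of each other.

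**Figure D4:**
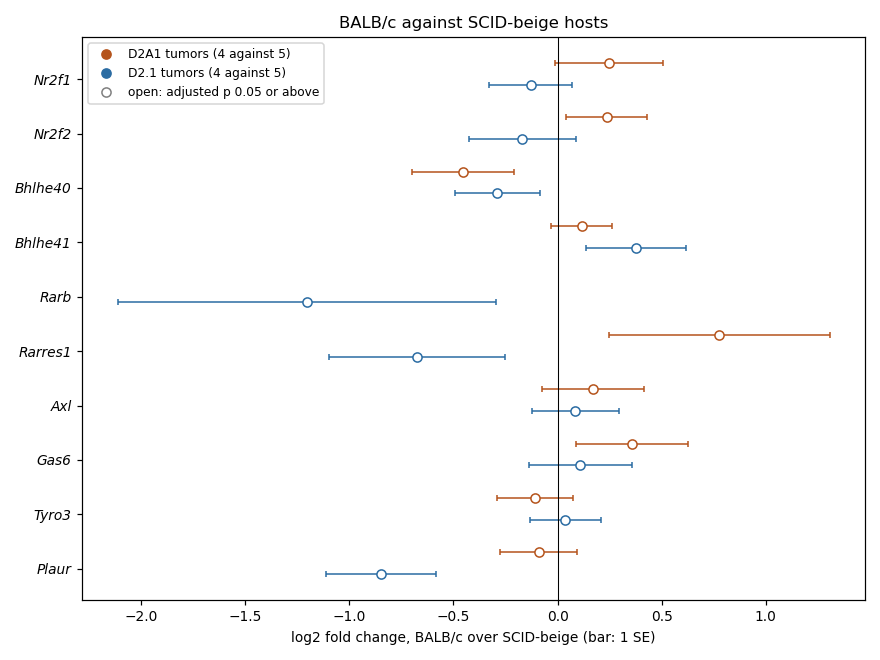
Fitted log2 fold change of BALB/c over SCID-beige hosts for each gene (edgeR, bar of 1 SE) in D2A1 tumors and D2.1 tumors. Every point is open, since no adjusted p was under 0.05, and Plaur in D2.1 tumors (-0.85) lies farthest from 0 for its SE. Rarb in D2A1 tumors did not pass the filter.

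The interaction of line and host, the line difference in BALB/c minus that in SCID-beige mice, was not called for any of the 10 genes in edgeR or DESeq2, against 0.0187% of 16036 genes called in edgeR. At an unadjusted p under 0.05 there were 2 of the 10, beside 8.45% of all genes. These were Rarres1 (log2 difference -1.48, SE 0.70, edgeR adjusted p = 0.581) and Plaur (-0.79, SE 0.33, edgeR adjusted p = 0.523). The lower Plaur of D2.1 in BALB/c hosts is therefore not shown to differ from the SCID-beige value.

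The line difference in SCID-beige tumors minus that in culture was called for 2 of the 10 genes, 1 higher and 1 lower, against 4.62% and 8.18% of 15077 genes called in these directions. The log2 difference was -1.31 for Bhlhe40 (SE 0.37, edgeR adjusted p = 0.0247), from D2.1 above D2A1 in culture to overlapping groups in tumors, and this call was lost without culture 1 or 2 of either line (adjusted p = 0.0624 to 0.0859). For Tyro3 it was 0.72 (SE 0.23, edgeR adjusted p = 0.0469), from a log2 fold change of -1.15 in culture to -0.45 in tumors, a call that was lost when any of 14 of the 16 libraries was left out (adjusted p = 0.0507 to 0.154) and with no filter (adjusted p = 0.113). For Nr2f2, which widened from 1.16 to 2.04, the log2 difference was 0.89 (SE 0.30, edgeR adjusted p = 0.0601). Both tables enter this fit by gene identifier, and a shift between tables that is the same for both lines cancels in it.

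After subtracting group means from log2 CPM, the Pearson correlation of the 45 pairs of the 10 genes over the 18 tumors ranged from -0.500 (Rarb with Gas6) to 0.789, with a median of -0.047 and 23 pairs below 0. It was highest for Nr2f2 with Axl (0.789), followed by Bhlhe40 with Rarb (0.747), Rarb with Axl (0.700) and Nr2f1 with Nr2f2 (0.695). Among 10863 protein-coding genes with a mean of at least 5 CPM, those most like Bhlhe40 were Ackr3 (0.948), a scavenging chemokine receptor gene, Hk2 (0.926), which encodes a glycolytic hexokinase, and Bnip3 (0.918), a mitophagy gene. For Axl they were Atxn1l (0.983), Gxylt1 (0.980) and Pkd2 (0.979), and for Nr2f2 they were Reep3 (0.969), Nrip1 (0.935) and Zfr (0.933). Gas6 was most like Gstk1 (0.857), Klhl6 (0.850) and Cbr2 (0.845), Bhlhe41 most like Rhoh (0.875), Tmem273 (0.868) and Lpcat2 (0.864), and Plaur most like Cars (0.908), Kcnn4 (0.892) and Por (0.857). The remaining genes had their closest match at 0.820 to 0.891, namely Commd8 for Nr2f1 (0.821), Arhgef3 for Rarb (0.891), Trmt1l for Rarres1 (0.836) and Rundc3a for Tyro3 (0.820). These are descriptions, since the points share libraries, depth, host cell content and the GC slope, which ranged from -0.333 to 0.349 over the tumors. The correlations of Rarb rest on 0 to 45 counts per tumor.

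In BALB/c mice the GC slopes of the lines overlapped, but the slope was higher in D2.1 within each replicate number. Adding the slope to the fit with the replicate block left 1 of the 10 genes called, Rarres1 (log2 fold change 6.81, edgeR adjusted p = 0.00752). The log2 fold changes there were 1.88 for Nr2f1 (adjusted p = 0.422), 2.42 for Nr2f2 (0.135), 0.77 for Bhlhe41 (0.573) and -0.96 for Plaur (0.519), and over all genes tested the calls went from 4868 to 259. No fit with the slope but without the block was made in BALB/c mice. Within the replicate numbers, line and slope move together over these 8 tumors, so the fit with both, which has few residual degrees of freedom, cannot tell them apart. The same fit in culture, which leaves 1 residual degree of freedom, called 7 of the 9 genes tested. In SCID-beige mice, where the slopes of the lines also overlap, adding the slope without the block kept all 7 calls.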

How the data were processed

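RNA-seq of 6 cell libraries and 18 tumors was used. Per the submitters' processing notes, reads were aligned with STAR to mm10, and the counting program, annotation and strand setting are not given in the sources used here. The authors deposited raw read counts per gene and FPKM values, which equalled counts divided by gene length and library total. Identifiers were paired with symbols through GENCODE M21, and unmatched identifiers held 0.0969% of counts in cells and 0.00594% in tumors. The 10 genes and the other gene lists were chosen with earlier results of these data known. FPKM had been intended for levels across groups, but the gene lengths differed between tables, so CPM was used and FPKM served only to rank genes within a table.

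Counts were filtered (filterByExpr), scaled by TMM and tested for each comparison over all genes with edgeR 4.0.16 (quasi-likelihood, robust) in R 4.3.3, with Benjamini-Hochberg adjustment at 0.05. Alternatives used DESeq2 1.42.0, limma 3.58.1 on log2(FPKM + 0.1) or (FPKM + 1), other filters, left-out libraries, a replicate block and the GC slope. The GC slope and the fit without D2.1 BALB/c tumors 1 and 4 were chosen after seeing the data. The steps were tested on simulated data. Exact permutation tests (two-sided) used log2(CPM + 0.1), with scipy 1.17.1 in Python 3.11.15. Deviations of samples with the same replicate number correlated at 0.211 to 0.526 in culture and 0.107 to 0.518 in BALB/c tumors. No label gives a pairing. Only 2 of 3 D2.1 cultures and 1 of 4 D2.1 BALB/c tumors correlated best with the D2A1 library of their own number. The replicate block was therefore used only as an alternative, and the main fits had no block. The remaining comparisons had correlations from -0.503 to 0.344. All 38 replicate pairs differed by more than sampling noise (chi-square per degree of freedom 5.2 to 129). The study describes the data points of in vitro experiments as technical replicates, so p-values in culture may measure technical spread. All 10 genes are named, and of each other list at most the 4 genes of largest fold change among those called with a mean of at least 1 FPKM in the higher group, except that 1 such gene is not reported here. For likeness, the 3 protein-coding genes of highest correlation were taken per gene. Floors cover counting error only.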

Additional observations from a re-analysis of the deposited data

Results flagged for a closer look

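The difference between D2.1 and D2A1 was not the same in SCID-beige tumors as in culture for 2 of the 10 genes, by the test of the difference itself (edgeR, adjusted p under 0.05), beside 12.8% of all genes. For Bhlhe40 the log2 difference was -1.31, a call lost without any of 4 of the 16 libraries (the cultures 1 and 2 of both lines, adjusted p = 0.0624 to 0.0859). For Tyro3 it was 0.72, a call lost without any of 14 of the 16 libraries (all but D2.1 SCID-beige tumor 3 and D2A1 SCID-beige tumor 2, adjusted p = 0.0507 to 0.154) and with no filter. Among 40 combinations of gene and tumor group, 0 tumors lay far enough from the others of its group to pass Dixon's 95% limit.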

How the results depend on the processing

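Of 525 log2 fold changes of the 10 genes under settings other than a left-out library, 497 kept their direction and side of the threshold, 9 lost and 7 gained a call and 12 turned direction. Of 737 with a library left out, 675 kept both, 35 lost and 5 gained a call and 22 turned. The count of genes called in BALB/c tumors was 1 with the replicate block and GC slope together, against 5. In SCID-beige tumors 4 were called with a log2 fold change beyond 1, against 7, and 4 to 7 with a library left out. For D2A1 hosts the GC slope gave 1 call (Bhlhe40, -0.67, adjusted p = 0.0414). For the line difference in tumors minus culture, DESeq2 gave 4, no filter 1 and a log2 difference beyond 1 gave 1, against 2, and left-out libraries gave 0 to 2. Over all genes, DESeq2 called 461 and 569 for hosts of D2.1 and D2A1 and 105 for the interaction, against 133, 170 and 3, and the replicate block 14 and 0 for the hosts. The replicate block moved Nr2f2 in tumors minus culture to an adjusted p of 0.0446 and, beside the Axl and Plaur calls above, changed no other call. The directions that turned were of differences without a call. These were Gas6 in BALB/c (-0.62, replicate block with GC slope), and for D2.1 hosts Tyro3 (replicate block -0.0049, GC slope -0.067, without tumors 1 and 4 -0.10) and Gas6 (without both -0.25). With the GC slope, Axl and Plaur turned for D2A1 hosts (-0.11 and 0.030) and Axl and Tyro3 in the interaction (0.26 and -0.055). Without D2.1 BALB/c tumors 1 and 4, Rarb, Axl and Tyro3 turned in the interaction (-0.52, 0.11 and -0.014). With a library left out, the ranges were -0.21 to 0.030 for Bhlhe40 in BALB/c and -0.048 to 1.18 for Rarb in SCID-beige tumors. For D2.1 hosts they were -0.054 to 0.24 (Gas6), -0.12 to 0.24 (Axl) and -0.052 to 0.14 (Tyro3), and for D2A1 hosts -0.19 to 0.032 (Plaur). In the interaction they were -1.07 to 0.77 (Rarb), -0.33 to 0.039 (Axl), -0.011 to 0.21 (Tyro3) and -0.054 to 0.27 (Bhlhe40). The cause was not tested. In culture, the block with the GC slope leaves 1 residual degree of freedom, and Rarres1 had an adjusted p of 1 there. Rarb in tumors rests on 0 to 45 counts and Gas6 in culture on 0 to 10.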

Other observations

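In the other gene lists, the line difference in SCID-beige tumors minus that in culture was called lower for 6 of 18 retinoid genes, 5 of 9 urokinase genes, 6 of 15 dormancy genes and 3 of 10 clock genes, and higher for 0 of each (edgeR adjusted p under 0.05, beside 8.18% of all genes called lower and 4.62% higher). Between hosts, Nr1d1, which encodes a repressor of the circadian clock, was the 1 clock gene called, lower in D2.1 tumors grown in BALB/c hosts (22.4 ± 6.53 CPM, mean ± SD, n = 4) than of SCID-beige mice (54.2 ± 18.5, n = 5), with edgeR adjusted p = 0.0459. Stra6, the retinol receptor, was the 1 retinoid gene called in D2A1 tumors, at 98.4 ± 34.7 CPM in BALB/c and 198 ± 20.4 in SCID-beige mice (edgeR adjusted p = 0.0351). Over all genes, 0.0201% in D2.1 and 0.261% in D2A1 tumors were called lower in BALB/c hosts.

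Of 6 proliferation genes, 4 were lower in D2.1 than in D2A1 tumors of BALB/c mice (edgeR adjusted p under 0.05, beside 15.8% of all genes), while 1 in culture and 1 in SCID-beige tumors were near the 20.7% and 14.8% of all genes called lower there. Their summed level was 634.8 to 841 CPM in D2.1 and 910.0 to 1250 in D2A1 tumors of BALB/c mice, without overlap, and 619.6 to 970 against 744 to 1027 CPM in SCID-beige mice, with overlap.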
